A study of Mus musculus with 20 samples.

Results

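The genes described here encode the ligands and receptors of the semaphorin, ephrin and Slit systems of axon guidance. They were taken by symbol from the protein-coding genes in the files: semaphorins (Sema and a number), plexins (Plxn), the neuropilins Nrp1 and Nrp2, ephrins (Efna, Efnb), Eph receptors (Epha, Ephb), Slits and Robo receptors. This gave 61 of the 39174 genes, under 60 symbols, namely 20 semaphorins, 9 plexins, 2 neuropilins, 6 ephrin-A entries, 3 ephrin-Bs, 9 EphA and 5 EphB receptors, 3 Slits and 4 Robo receptors. Efna5 has 2 entries, the second of which (ENSMUSG00000090425, chr17:62604292-62606707 on GRCm38) lies inside the locus of the first, so that reads could be split between them and the values of both are uncertain.

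Semaphorins, ephrins and Slits are secreted or membrane-bound cues that steer growing axons, mostly by repulsion. Semaphorins signal through plexins, and most secreted class 3 semaphorins need a neuropilin as the binding partner. Ephrin-As, held by a lipid anchor, and ephrin-Bs, which span the membrane, bind the Eph receptor tyrosine kinases on neighbouring cells and can also signal backwards into their own cell, while Slits act through Robo receptors. In spinal motoneurons these systems are known for the choice of limb nerve branches and for keeping motor axons away from the midline.

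Motoneurons from spinal cords of mid-gestation embryos of CD-1 mice, enriched by panning on antibody to the neurotrophin receptor p75, were grown in microfluidic chambers that let axons grow away from cell bodies and dendrites into a space of their own. All cells had received a lentivirus. Controls carried the empty expression vector, and in Tdp-43 knockdown cells the virus expressed a short hairpin RNA against Tdp-43, an RNA-binding protein found in inclusions in amyotrophic lateral sclerosis. Total RNA of each compartment was amplified as whole-transcriptome cDNA and sequenced, giving 4 control axonal, 4 control somatodendritic, 6 knockdown axonal and 6 knockdown somatodendritic libraries.

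The panning limits these cultures as a model, since it enriches motoneurons and does not purify them. The motoneuron markers Chat, Isl2 and Mnx1 were listed at 0 in all 20 libraries, and the summed level of the 8 motoneuron markers in the files was between 0 and 23.8. Whether a 0 of these genes is a failed estimate was not tested, so that the zeros do not measure the share of motoneurons. The values are FPKM (fragments per length of transcript and per number of mapped fragments), divided here by 1 factor per library from the median of ratios over all 20 libraries and called scaled FPKM. FPKM are per length, so that levels of different genes can be set side by side, but their order is not the order by number of fragments. Fragments implied by the deposited 95% intervals had control axonal medians of 25.5 for Plxnb2, 2.98 for Slit2 and 54.3 for Plxna1. Depth relative to the deepest library, read from the width of the deposited 95% intervals, was 0.530 to 1 in control libraries, 0.103 to 0.760 in knockdown axonal and 0.143 to 0.698 in knockdown somatodendritic libraries. In the shallowest, knockdown axonal replicate 5, 29 of the 61 genes were above 0, against 47 to 57 in all others. The labels do not say which libraries came from separate cultures, so that p-values measure only the spread between these libraries, which may be technical. Fewer cells of a type and less RNA per cell cannot be told apart in such bulk values.

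The targeted transcript Tardbp was measured at 29.0, 18.3, 27.6 and 26.6 scaled FPKM in control somatodendritic libraries and at a lowest of 0, a median of 3.11 and a highest of 6.43 in the 6 knockdown libraries, a mean of 12.3% of control (p = 0.00952 by exact permutation, two-sided, which is the lowest value possible with 4 against 6 libraries). In axonal libraries it was at 46.2, 27.6, 48.4 and 17.6 in controls and at 26.9, 1.38, 3.61, 13, 14.8 and 12.4 in knockdown replicates 1 to 6, a mean of 34.3% of control (exact permutation test, p = 0.019, while unscaled values gave 52.9% and p = 0.143). Replicate 1 of the libraries labelled knockdown axonal lay within the range of the controls, and without it the mean was 25.8% of control (exact permutation test, p = 0.0159).

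Most guidance genes were present in both compartments. A mean of at least 1 scaled FPKM was reached by 49 of the 61 genes in control somatodendritic and by 49 in control axonal libraries, and a mean of at least 10 by 25 and 27. Robo4, known mainly from blood vessels, and Sema3g were listed at 0 in all 20 libraries. The summed level of the 61 genes was 622 ± 35.0 (SD, n = 4) in control somatodendritic, 724 ± 44.3 (n = 6) in knockdown somatodendritic, 703 ± 61.0 (n = 4) in control axonal and 754 ± 142 scaled FPKM (n = 6) in knockdown axonal libraries.

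**Figure D1:**
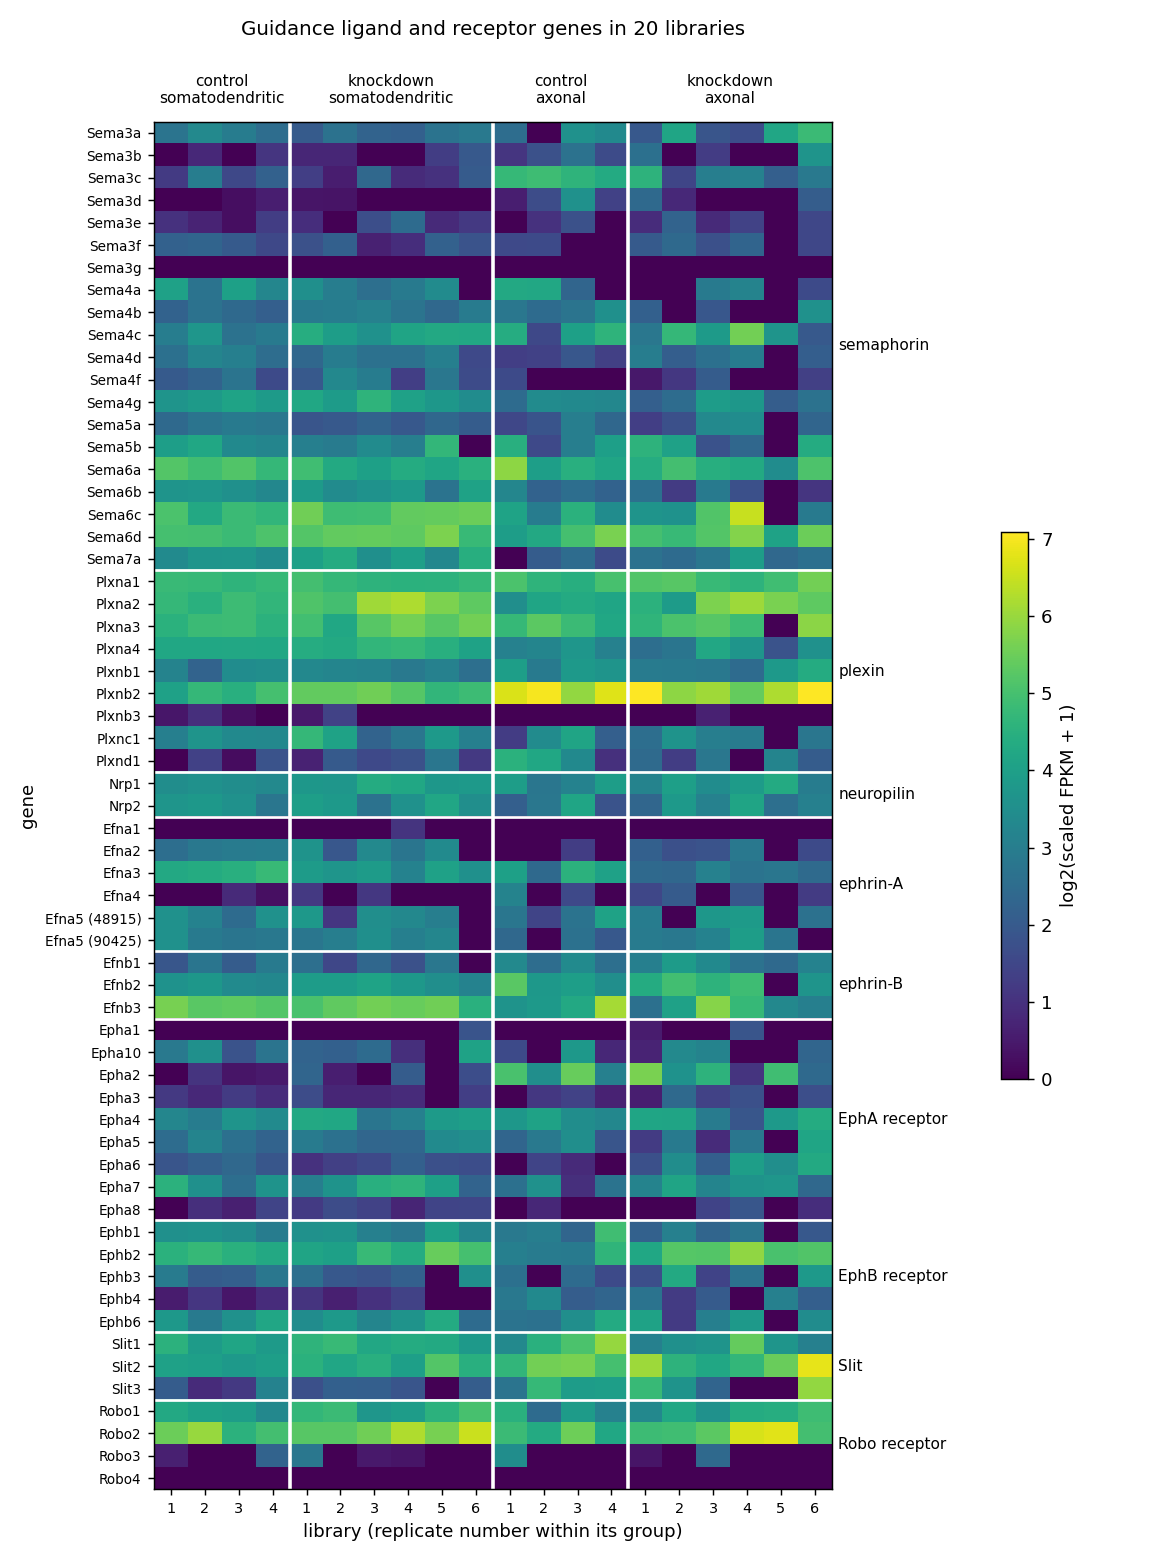
Levels of the 61 guidance genes (rows, by family; for Efna5 the last digits of the gene identifier are given) in 20 libraries (columns, by group and replicate number), as log2(scaled FPKM + 1). Plxnb2 stands out in the axonal libraries, Robo4 and Sema3g are dark throughout, and knockdown axonal replicate 5, the shallowest library, holds the most dark cells.

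Among the ligands of control somatodendritic libraries, Sema6a (31.3 ± 4.74) and Sema6d (30.4 ± 2.48), transmembrane semaphorins that bind plexin-As, were the highest semaphorins, and Efnb3, the ephrin-B of the spinal midline, was the highest ephrin (40.3 ± 5.83 scaled FPKM, n = 4). Efna3 led the ephrin-As at 21.3 ± 3.44 and Slit1 the Slits at 16.7 ± 4.26. Slit2 followed at 14.6 ± 1.02, a gap within the spread of the Slit1 libraries.

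Among the receptors of the same libraries, Robo2 was highest (40.2 ± 17.9 scaled FPKM, n = 4), with its libraries ranging from 22.5 to 63.3. Plxna1 (25.5 ± 1.43) and Plxna3 (25 ± 3.02), signalling receptors of class 3 semaphorins, differed by less than their spread, as did Nrp2 (10.4 ± 3.04) and Nrp1 (10.1 ± 0.808). Ephb2 (22 ± 3.05) led the EphB receptors, and Epha7 (12.4 ± 7.33) the EphA receptors. Epha4 followed at 9.16 ± 1.98, a gap within the spread of the Epha7 libraries.

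In control axonal libraries the order was different in several families. Plxnb2, a plexin for class 4 semaphorins, was the highest of all 61 genes (99.0 ± 27.9 scaled FPKM, n = 4), followed by Slit2 (38.0 ± 12.5). Epha2 (23.1 ± 17) was the highest EphA receptor, Ephb1 (11.7 ± 11.9) and Ephb2 (11.1 ± 8.54) were the highest EphB receptors with nearly equal means, and Sema6d (28.4 ± 15.8) and Sema6a (27.7 ± 20.1) remained the highest semaphorins. Efnb3 (27.9 ± 27.5), Robo2 (27.4 ± 12.7) and Efna3 (14.5 ± 7.51) again led their families. Of the axonal means given here, those of Ephb1, Ephb2, Efnb3 and Sema6a rest largely on 1 library each, Ephb1 at 29.4, Ephb2 at 23.9 and Efnb3 at 69.0 in replicate 4, and Sema6a at 57.6 in replicate 1.

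The design allows each compartment to be set against the other within controls, which asks which guidance transcripts differ in level between axons and cell bodies. The neurotrophic factor CNTF was given on both sides of the chambers and BDNF on the axonal side, so that the compartments also differed in treatment. Log2 changes are on the log2(scaled FPKM + 1) scale, which understates changes of low genes, and were tested with limma on every gene with a mean of at least 1, with p-values adjusted by the Benjamini-Hochberg method. Of 53 guidance genes tested, 7 passed an adjusted p of 0.05, and 6.5% of all 14094 genes tested did. Epha2, Sema3c, Plxnb2, Ephb4 and Slit2 were higher in axonal libraries (all genes 4.04%), and Efna2 and Sema7a were lower (all genes 2.46%). At an unadjusted p under 0.05 there were 9 higher and 11 lower genes, against 11.9% and 10.4% of all genes. The groups did not overlap for 7 higher and 9 lower genes, against 8.16% and 7.47%. The median log2 change was −0.38 for the guidance genes and 0.00 for all genes. Under FPKM as deposited, with no scaling, these medians were −0.91 and −0.48.

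The largest change was in Epha2 (chr4:141301240-141329384), an Eph receptor best known from epithelial cells. It was measured at 31.9, 10.4, 42.8 and 7.46 scaled FPKM in control axonal and at 0, 1.11, 0.33 and 0.416 in control somatodendritic libraries. All axonal libraries were far above all somatodendritic ones, with a log2 change of 3.77 (SE 0.58, limma adjusted p = 0.00501).

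Sema3c (chr5:17574281-17730268), a secreted class 3 semaphorin, was measured at 25.7, 28.3, 23.6 and 19.1 in control axonal and at 1.31, 7.0, 1.92 and 3.61 in control somatodendritic libraries. The groups were well apart, and the log2 change was 2.65 (SE 0.42, limma adjusted p = 0.00541).

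Plxnb2 (chr15:89155549-89171120) was at 102, 127, 60.3 and 107 scaled FPKM in control axonal and at 15.7, 25.4, 21.1 and 31.1 in control somatodendritic libraries. Its lowest axonal library was above the highest somatodendritic library (log2 change 2.03, SE 0.29, limma adjusted p = 0.00384). For Epha2, Sema3c and Plxnb2 the adjusted p stayed under 0.05 when any of the 8 libraries was left out.

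Ephb4 (chr5:137350109-137378669), the receptor of ephrin-B2 best known from veins, was low in both compartments, at 6.15, 9.26, 3.29 and 3.99 in control axonal and at 0.467, 1.17, 0.345 and 0.87 in control somatodendritic libraries. Slit2 (chr5:47983155-48306282), a Robo ligand, was at 24.2, 47.2, 49.8 and 31.0 in axonal and at 15.5, 15.1, 13.2 and 14.7 in somatodendritic controls. Neither gene's groups overlapped. Median implied fragments were low for both, at 3.30 and 0.448 for Ephb4 and 2.98 and 2.06 for Slit2 in axonal and somatodendritic controls. The log2 changes were 1.91 (SE 0.48, limma adjusted p = 0.0396) for Ephb4 and 1.26 (SE 0.29, adjusted p = 0.0277) for Slit2, and both calls were lost in FPKM as deposited (adjusted p = 0.0525 and 0.119) and held in 2 of the 8 fits without 1 library.

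**Figure D2:**
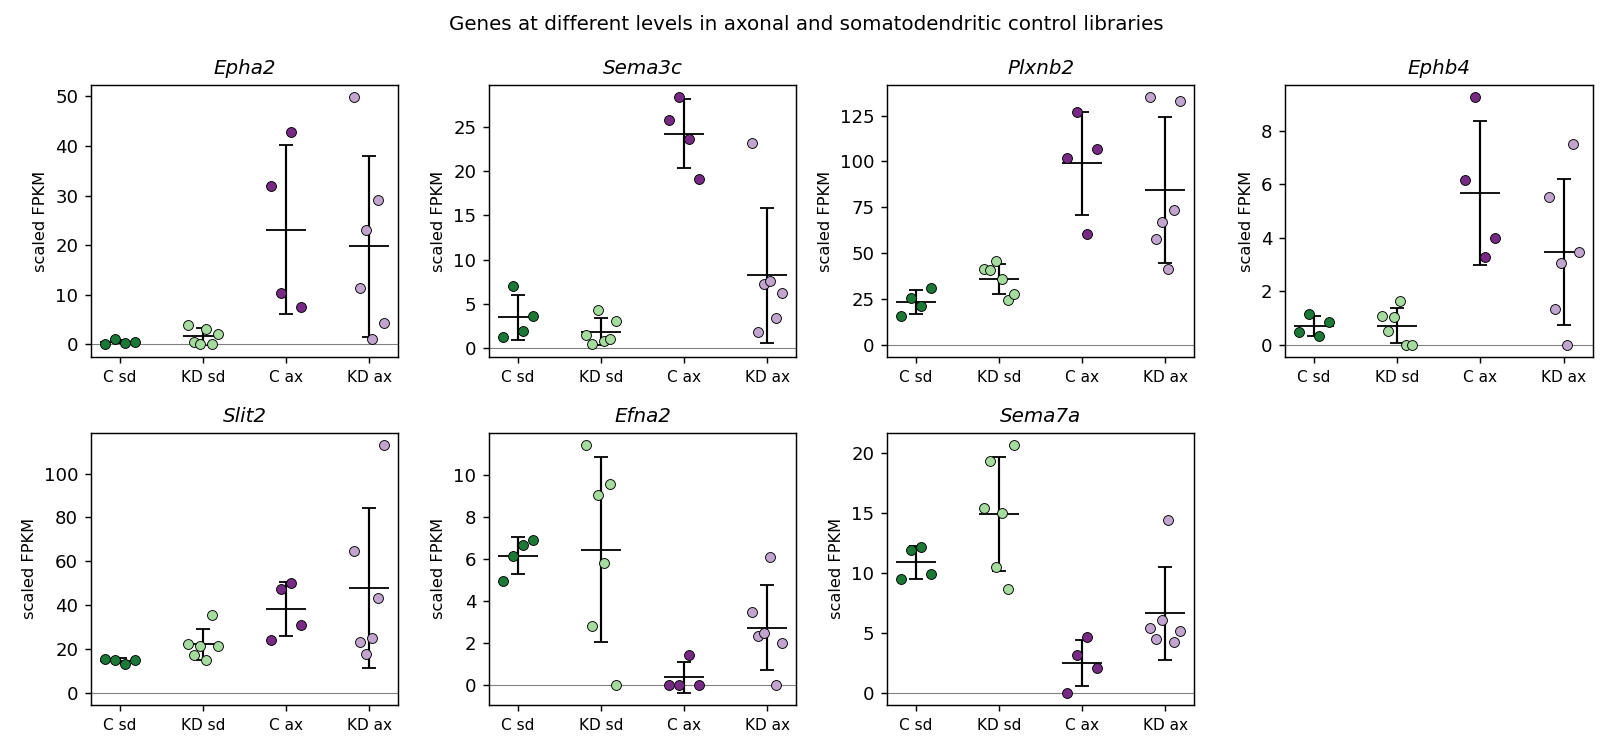
Scaled FPKM of the 7 genes that differed between compartments in controls, 1 point per library, for control (C) and knockdown (KD) somatodendritic (sd) and axonal (ax) libraries, with bars for the mean ± SD. Control axonal points of Epha2, Sema3c, Plxnb2, Ephb4 and Slit2 lie above the control somatodendritic points, and those of Efna2 and Sema7a lie below them.

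The genes that passed as lower in axonal libraries, Efna2 and Sema7a, are both ligands with a lipid anchor. No other ephrin-A passed, and Efna4 had a higher mean in axonal (2.48 ± 3.79) than in somatodendritic controls (0.258 ± 0.382). Efna2 (chr10:80179482-80190010) was at 4.92, 6.14, 6.67 and 6.88 scaled FPKM in control somatodendritic libraries, but in control axonal libraries it was above 0 in replicate 3 alone, at 1.44. The log2 change was −2.51 (SE 0.49, limma adjusted p = 0.0139), and the call held in 5 of the 8 fits without 1 library.

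Sema7a (chr9:57940113-57962864), a semaphorin that promotes axon growth through integrins, was at 9.54, 11.9, 12.2 and 9.88 in control somatodendritic and at 0, 3.15, 4.67 and 2.08 in control axonal libraries. The groups did not overlap (log2 change −2.02, SE 0.54, limma adjusted p = 0.048), and the call held in 2 of the 8 fits without 1 library.

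By family, all 3 Slits had higher means in axonal than in somatodendritic controls, Slit1 with a log2 change of 0.60 (limma adjusted p = 0.512). Slit3, another Robo ligand, had a log2 change of 2.04 and Plxnd1, a vascular and neuronal plexin, one of 2.42, with limma adjusted p-values of 0.0635 and 0.0904. Plxna2 and Plxna4, plexins that pair with neuropilins, had log2 changes of −0.65 and −0.94 (adjusted p = 0.19 and 0.076). Plxna4 was between 17.5 and 18.1 in control somatodendritic and between 7.62 and 12.1 in control axonal libraries, so that its groups did not overlap.

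Among the semaphorins, Sema4d (−1.37), Sema4f (−1.74), Sema4g (−0.73), Sema6b (−0.99) and Sema6c (−0.95) had negative log2 changes at an unadjusted p under 0.05 and adjusted p-values of 0.0741 to 0.218. The class 3 genes Sema3b (1.31) and Sema3d (1.58) had positive ones, at adjusted p-values of 0.19 and 0.189. Both are low genes, with control axonal means of 2.75 ± 1.82 and 3.77 ± 4.78. Of the receptors, Nrp1 had nearly equal means in control axonal (10.7 ± 4.49) and somatodendritic libraries (95% interval of the log2 change −0.80 to 0.78), and so did Plxna1 (−0.48 to 0.60).

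Of 6 marker lists of other cells, those of fibroblasts and meninges and of dividing cells had sums that did not overlap between the control compartments. The summed level of 7 fibroblast and meninges markers was 15.6 to 80.1 scaled FPKM in control axonal and 1.81 to 11.2 in control somatodendritic libraries, with 1 of the 7 at 0 in each group (Lum and Postn). Col1a1, a fibroblast collagen, was at 37.2 ± 16.5 and 2.41 ± 2.82. Postn, a matrix protein, was at 11.7, 3.89, 11.1 and 0 in axonal controls, Col1a2, another collagen, at 10.2, 3.48, 0 and 0, and Dcn, a proteoglycan, at 1.83, 0, 1.72 and 0. In somatodendritic controls Postn was at 0 in all, Col1a2 at 0, 0, 0.242 and 1.82, and Dcn at 0, 1.22, 0 and 1.82. In control axonal replicate 4 Col1a1 was the 1 marker of the list above 0. The 4 markers of dividing cells summed to 135 to 268 in control axonal and 46.2 to 64.6 in control somatodendritic libraries, and 4 endothelial markers to 0 to 7.88 and 0.438 to 3.94. The 7 oligodendrocyte and Schwann lineage markers summed to 14.1 to 57.4 and 49.9 to 100.5, the 4 microglia markers to 0 to 5.11 and 3.86 to 24.2, and the 7 astrocyte and radial glia markers to 127 to 615 and 285 to 354. The part of these cells in the levels of Epha2, Sema3c, Plxnb2, Ephb4, Slit2, Efna2 and Sema7a was not tested.

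In Tdp-43 knockdown cultures the same comparison of compartments gave 0 of 53 guidance genes at an adjusted p under 0.05 with limma, against 1.48% of 13651 genes. At an unadjusted p under 0.05 there were 5 higher and 10 lower genes, against 8.17% and 8.8%. The groups did not overlap for 0 higher genes and 1 lower gene, against 1.16% and 1.38%. The median log2 change was −0.25 for the guidance genes and −0.05 for all genes.

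Epha2 had a log2 change of 2.60 in knockdown (SE 0.74, limma adjusted p = 0.0877), with axonal libraries from 1.11 over a median of 17.2 to 49.8 and somatodendritic libraries from 0 over 1.35 to 4.0. Only knockdown axonal replicate 4 fell into the somatodendritic range. Plxnb2 ranged from 41.2 over 70.4 to 135 in axonal and from 24.2 over 38.3 to 45.5 in somatodendritic knockdown libraries (log2 change 1.12, SE 0.32, adjusted p = 0.0877), again with replicate 4 as the axonal library inside the other range.

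The lowest p among the guidance genes lower in knockdown axons was that of Sema6b, a transmembrane semaphorin, with a log2 change of −1.99 (SE 0.52, limma adjusted p = 0.0679). Efna3 was the gene whose groups did not overlap, at 4.20 to 7.58 in axonal and 7.82 to 15.5 in somatodendritic knockdown libraries (log2 change −1.06, adjusted p = 0.129). Efna2 had a log2 change of −0.83 in knockdown against −2.51 in controls, and the difference of 1.68 between them had a 95% interval of −0.22 to 3.58 (limma adjusted p = 0.954).

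**Figure D3:**
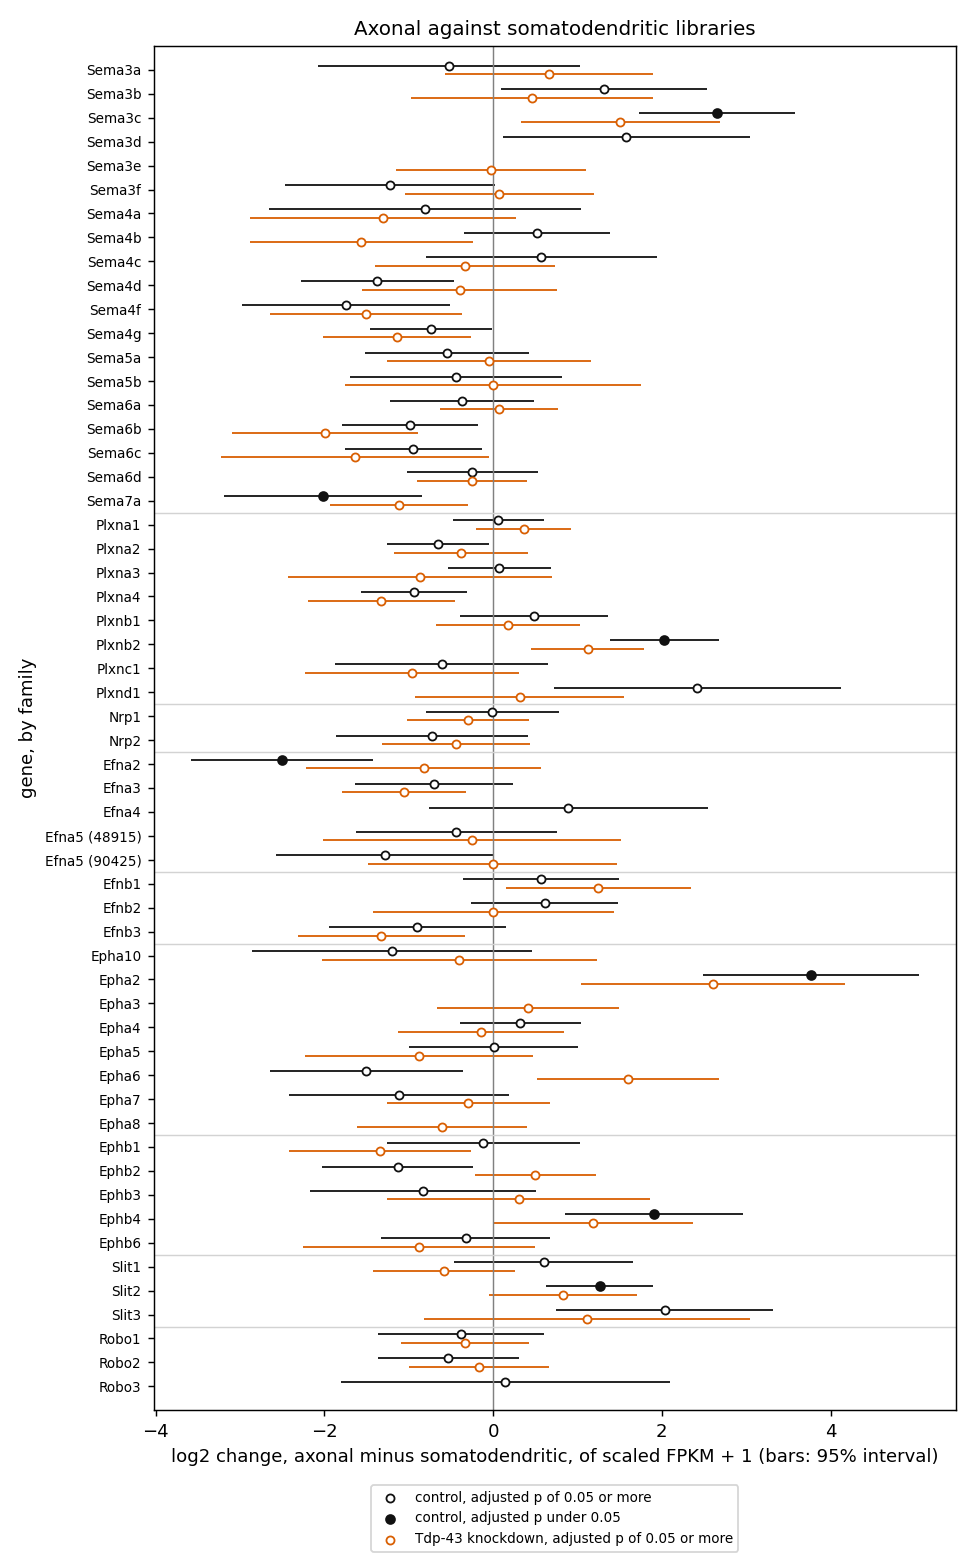
Log2 change of scaled FPKM + 1, axonal minus somatodendritic, for each guidance gene tested, by family, in control (black) and Tdp-43 knockdown libraries (orange), with 95% intervals. Filled points mark an adjusted p under 0.05, which 7 genes reached in controls and 0 in knockdown. Epha6 lies below 0 in controls and above 0 in knockdown.

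Depletion of Tdp-43 is the main comparison of the study, made in each compartment. None of the 52 guidance genes tested in somatodendritic libraries passed an adjusted p of 0.05 in limma, against 1.03% of 13359 genes. At an unadjusted p under 0.05 there were 5 genes with higher and 3 with lower values in knockdown, against 4.54% and 9.64% of all genes, and the groups did not overlap for 2 higher and 2 lower genes, against 1.85% and 3.8%. The median log2 change was 0.10 for the guidance genes and −0.14 for all genes, and 0.30 and 0.04 in FPKM as deposited.

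Plxna2 (chr1:194619829-194816869), a plexin that receives class 3 and class 6 semaphorin signals, was at 25.6, 21.5, 27.8 and 24.6 scaled FPKM in control somatodendritic libraries and ranged from 30.4 over a median of 44.9 to 73.2 in knockdown. All 6 knockdown libraries were above all controls. The log2 change was 0.88 (SE 0.25, limma adjusted p = 0.122, range 0.0556 to 0.292 over the alternatives).

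Among the class 6 semaphorins, which include the known Plxna2 ligand Sema6a, Sema6c ranged from 28.8 over 41.0 to 45.7 in knockdown somatodendritic libraries, against 32.8, 18.5, 27.3 and 24.2 in controls (log2 change 0.56, SE 0.21, limma adjusted p = 0.244). Sema6a ranged from 15.4 over 19.0 to 29.2 against 35.3, 29.1, 35.0 and 25.6 (log2 change −0.62, adjusted p = 0.187), and Sema6d from 26.3 over 39.8 to 51.0 against 31.0, 30.2, 27.2 and 33.2 (log2 change 0.33, adjusted p = 0.477). The fourth of the class, Sema6b, had a log2 change of 0.03 (limma adjusted p = 0.979). The groups of all 4 overlapped. Plxnb2 had a log2 change of 0.61 (adjusted p = 0.268) and Ephb2 means of 22 ± 3.05 and 25.3 ± 10.4. Plxna2, Plxnb2, Sema6a, Sema6c, Sema6d and Ephb2 are in the study's lists of changed transcripts, which were drawn from these libraries, so that their values here are no independent evidence.

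Efna3 (chr3:89313899-89322965), an ephrin-A that repels EphA-bearing axons, was at 18.5, 19.4, 21.2 and 26.2 in control somatodendritic libraries and ranged from 7.82 over 12.8 to 15.5 in knockdown. All knockdown libraries were below all controls (log2 change −0.77, SE 0.23, limma adjusted p = 0.139, and 0.312 in FPKM as deposited). Sema5a, a semaphorin with thrombospondin repeats, was at 4.37, 5.65, 6.58 and 6.03 in controls and from 2.63 over 3.06 to 4.15 in knockdown, also without overlap (log2 change −0.65, adjusted p = 0.34).

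Nrp1 (chr8:128359073-128505462), the neuropilin that binds Sema3a, was at 10.1, 11.1, 10.1 and 9.10 in control and from 12.2 over 12.7 to 19.5 in knockdown somatodendritic libraries. The groups did not overlap, at a log2 change of 0.47 (SE 0.22, limma adjusted p = 0.375). Slit2, with a log2 change of 0.51 (adjusted p = 0.348), ranged from 15.1 over 21.2 to 35.4 in knockdown, and its receptor Robo2, with a log2 change of 0.48 (adjusted p = 0.547), ranged from 36.9 over 47.5 to 91.4.

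Sema4c, a ligand of Plxnb2 and a gene picked out after its values were seen, had the lowest p of the guidance genes in this compartment. It was at 6.95, 12.3, 5.35 and 6.50 in controls and from 11 over 17.4 to 20.3 in knockdown, with 1 control library inside the knockdown range. The log2 change was 1.03 (SE 0.27, limma adjusted p = 0.0918), and in FPKM as deposited Sema4c was the 1 guidance gene with an adjusted p under 0.05 (0.0437).

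**Figure D4:**
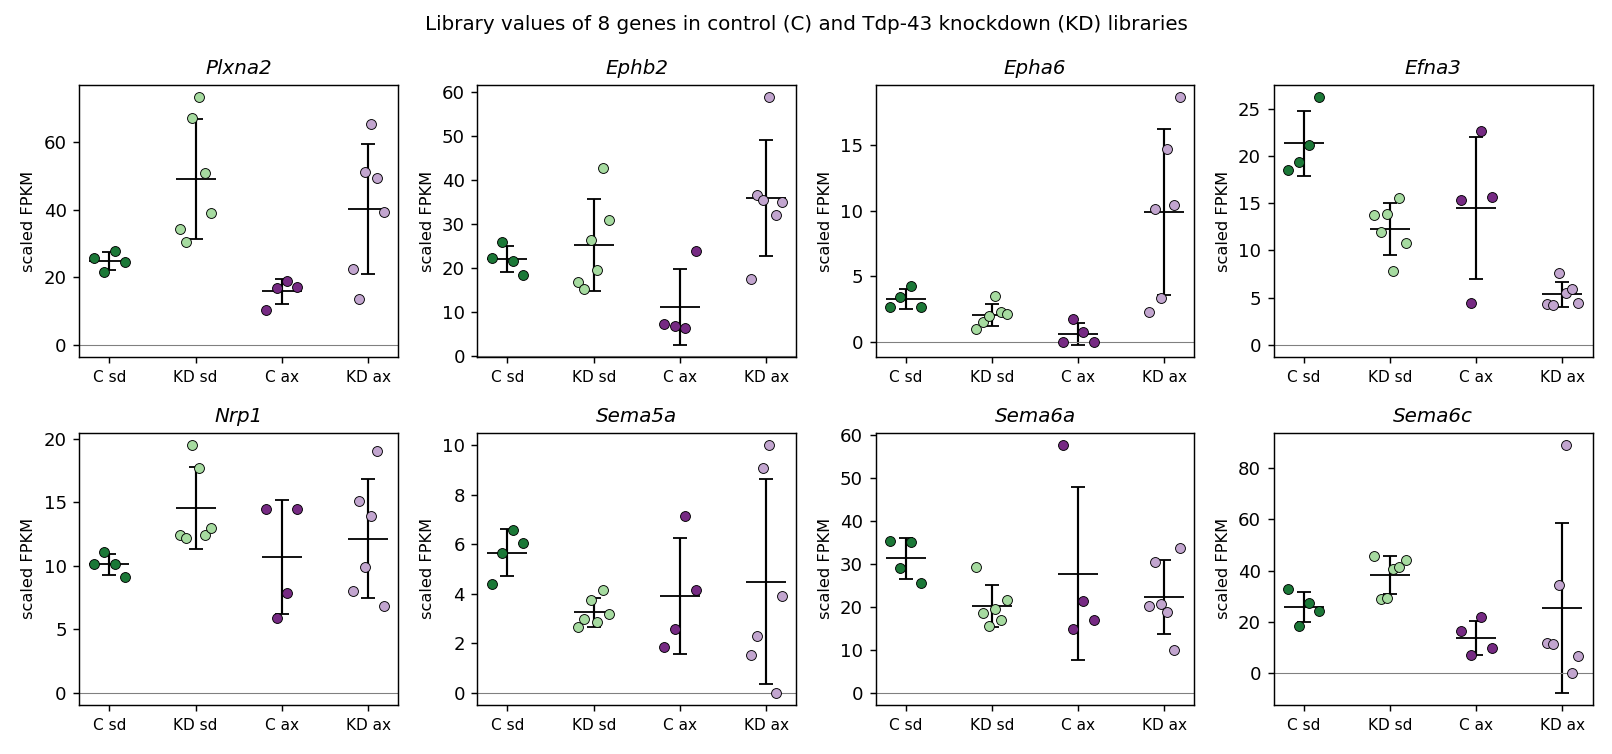
Scaled FPKM of 8 genes in control (C) and knockdown (KD) somatodendritic (sd) and axonal (ax) libraries, 1 point per library, with bars for the mean ± SD. In somatodendritic libraries Plxna2 and Nrp1 are higher and Efna3 and Sema5a lower in knockdown without overlap, and in axonal libraries Epha6 is higher without overlap.

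In axonal libraries 0 of 54 guidance genes passed an adjusted p of 0.05 in limma, against 0.387% of 14197 genes. At an unadjusted p under 0.05 there were 3 genes with higher and 1 with lower values in knockdown, against 1.95% and 6.78%, and the groups did not overlap for 1 higher and 0 lower genes, against 0.43% and 2.12%. The median log2 change was −0.16 for the guidance genes and −0.21 for all genes, and 0.30 and 0.23 in FPKM as deposited. The sign of a small change in this compartment therefore depends on the scaling, and with intervals as wide as those here a missed threshold does not show equal levels.

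Epha6 (chr16:59653483-60605531), a neuronal Eph receptor, was at 0, 1.76, 0.783 and 0 scaled FPKM in control axonal libraries and at 2.32, 10.1, 3.38, 14.7, 10.4 and 18.6 in knockdown replicates 1 to 6. All 6 knockdown libraries were above the highest control. The log2 change was 2.61 (SE 0.68, limma adjusted p = 0.169, range 0.0778 to 0.517 over the alternatives). In somatodendritic libraries Epha6 was at 2.67, 3.42, 4.30 and 2.69 in controls and from 1.03 over 2.07 to 3.53 in knockdown, groups that overlapped. All these values lie near the floor. Median implied fragments of Epha6 were 0.0111 in control and 1.59 in knockdown axonal, and 0.877 and 0.152 in somatodendritic libraries. The difference of the knockdown effect, axonal minus somatodendritic, was 3.1 (SE 0.57, limma adjusted p = 0.252), the lowest p of the 55 guidance genes tested for it. Of these, 0 passed an adjusted p of 0.05 (all genes 0.0428%), and at an unadjusted p under 0.05 there were 2 positive and 1 negative difference (all genes 2.55% and 2.69%).

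Ephb2 (chr4:136647539-136835988), a receptor of ephrin-Bs that steers motor axons in the limb, was at 7.37, 6.71, 6.37 and 23.9 in control axonal and at 17.5, 36.5, 35.5, 58.7, 32.1 and 34.9 in knockdown axonal libraries. Of the 6 knockdown libraries, 5 were above the highest control, which itself stood apart from the other controls. The log2 change was 1.74 (SE 0.47, limma adjusted p = 0.202) in axonal libraries, and the difference of the effect between compartments was 1.63 (adjusted p = 0.893).

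Plxna2 was at 10.4, 16.8, 19.0 and 17 in control axonal libraries and at 22.4, 13.7, 51.0, 65.4, 49.2 and 39.2 in knockdown. All knockdown libraries but replicate 2 were above all controls (log2 change 1.15, SE 0.47, limma adjusted p = 0.479). Plxna2 thus had higher means in knockdown in both compartments, 40.1 ± 19.3 against 15.8 ± 3.75 in axonal and 49.1 ± 17.7 against 24.9 ± 2.63 in somatodendritic libraries.

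Sema3c, the semaphorin that was higher in control axons, was at 23.1, 1.81, 7.25, 7.58, 3.45 and 6.27 in knockdown axonal libraries, against 19.1 to 28.3 in controls. Replicate 1, the library in which Tardbp was within the control range, was within the control range for Sema3c as well, and the other 5 were below it. The log2 change was −1.77 (SE 0.57, limma adjusted p = 0.311), and −2.11 without that replicate (adjusted p = 0.142). With knockdown libraries of a relative depth of at least 0.5 alone, which are replicates 1, 3 and 6, it was −1.14 (limma adjusted p = 0.608).

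Without the same replicate the log2 changes of Epha6, Ephb2 and Plxna2 were 2.9, 1.92 and 1.28 (limma adjusted p = 0.12, 0.14 and 0.405). With replicates 1, 3 and 6 alone as the deeper knockdown libraries they were 2.14, 1.47 and 1.15 (limma adjusted p = 0.517, 0.501 and 0.517). Some other genes varied widely in knockdown axonal libraries, and Plxna1 (32.8 ± 8.55) and Sema6d (34.3 ± 13.1) did so less. Sema6c ranged from 0 over 11.5 to 89.1, Robo2 from 27.9 over 34.5 to 107.5 and Slit2 from 17.7 over 34.1 to 113. Each of these 3 ranges overlapped that of the controls, and Plxnb2 (84.6 ± 39.7 against 99.0 ± 27.9) had a 95% interval of the log2 change of −1.14 to 0.53.

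**Figure D5:**
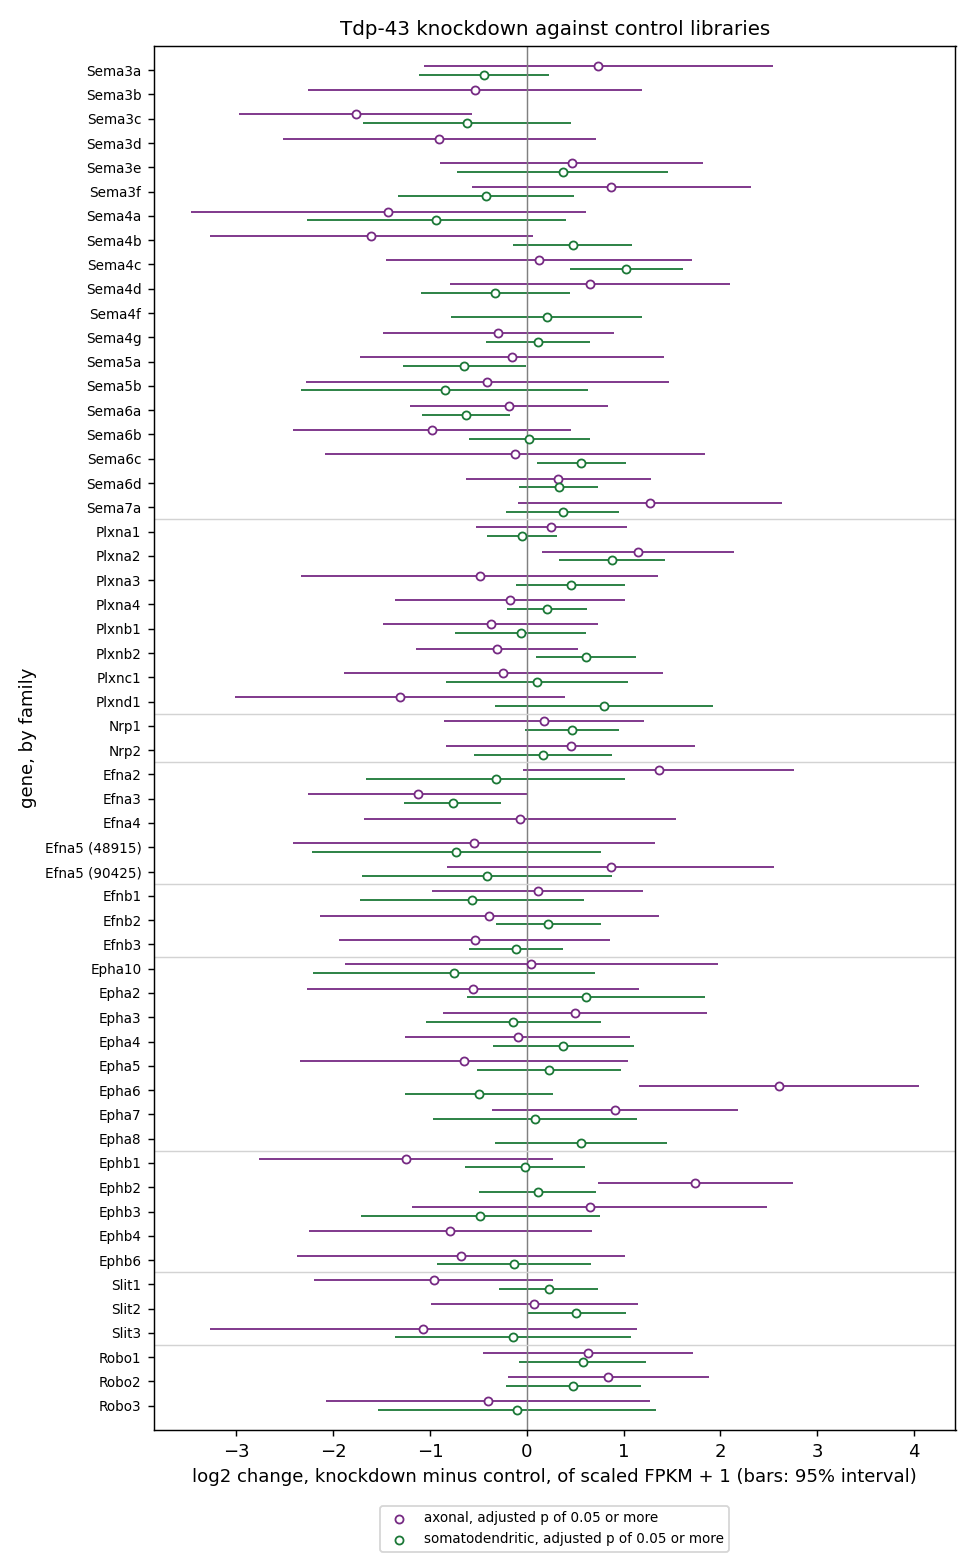
Log2 change of scaled FPKM + 1, Tdp-43 knockdown minus control, for each guidance gene tested, by family, in axonal (violet) and somatodendritic libraries (green), with 95% intervals. All points are open because 0 genes reached an adjusted p under 0.05. Intervals are wider in axonal libraries, and Epha6 lies farthest to the right.

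The same marker lists were summed in knockdown libraries. In somatodendritic libraries the 4 markers of dividing cells summed to 46.2 to 64.6 in controls and 0.847 to 43.2 in knockdown, without overlap. The sums of the other lists overlapped there, at 285 to 354 and 204 to 350 for astrocytes and radial glia, 49.9 to 100.5 and 46.2 to 96.9 for the oligodendrocyte and Schwann lineage, 1.81 to 11.2 and 1.51 to 10.7 for fibroblasts and meninges, 3.86 to 24.2 and 2.21 to 12.9 for microglia, and 0.438 to 3.94 and 0 to 3.56 for endothelium. In axonal libraries all 6 overlapped, at 127 to 615 and 53.0 to 590.2 for astrocytes and radial glia, 14.1 to 57.4 and 5.87 to 89.9 for the oligodendrocyte and Schwann lineage, 15.6 to 80.1 and 19.0 to 120.3 for fibroblasts and meninges, 0 to 5.11 and 0 to 31.2 for microglia, 0 to 7.88 and 0 to 5.37 for endothelium, and 135 to 268 and 19.1 to 267 for dividing cells. Their part in the values of Plxna2, Efna3, Sema4c, Epha6, Ephb2 and Sema3c was not tested.

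Tdp-43 is known to bind RNA at repeats of U and G. The longest protein-coding transcript of each gene in GENCODE M21 (GRCm38) was therefore searched on its sense strand for a run of alternating T and G that holds TGTGTGTGTGTG, with introns not included. Such a run was found in 8 of 60 guidance genes, or 13.3%, and in 6.47% of all 21218 protein-coding genes. Guidance transcripts are long, with a median of 4770 bases against 2714, and 11.7% of the genes with transcripts of 3908 to 6774 bases, the middle range of the guidance genes, held a run. All 10 runs lay in the 3′ UTR, in Efnb2, Epha4, Epha5, Nrp2, Plxna4, Sema4c, Sema4f and Sema6d. The longest, 54 bases, was in the last exon of Nrp2 at chr1:62817579-62817632. The windows below, read from the transcripts on the minus strand of the genome, are shown because each holds a whole run with its flanks. The first is that of Sema4c, which had the lowest p of the guidance genes for knockdown in somatodendritic libraries. Capitals mark the run.
Sema4c 3′ UTR, chr1:36549184-36549213: gaaTGTGTGTGTGTGTGTGTGTGTGTtgta
Epha5 3′ UTR, chr5:84058327-84058356: gaaatTGTGTGTGTGTGTGTGTGTGcgtgc
Efnb2 3′ UTR, chr8:8618493-8618522: ggttcgaTGTGTGTGTGTGTGTatgagtgg

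Of the 8 genes with a run, Sema4c had an unadjusted p under 0.05 for knockdown against control in somatodendritic libraries (all genes 4.54% higher and 9.64% lower) and 0 had one in axonal libraries (1.95% and 6.78%). The transcripts of Plxna2, Epha6, Ephb2, Efna3 and Sema3c held no run of these letters. The runs are a description of the sequence, and binding was not measured in these libraries.

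The guidance genes also span more of the genome than most. Their median span was 39.6 kb against 15.2 kb for all protein-coding genes, from 2.42 kb for the second Efna5 entry to 952 kb for Epha6, and 26 of 61, or 42.6%, spanned over 100 kb, against 10.4% of all. In knockdown axonal libraries the median log2 change of the 26 long guidance genes was −0.01 and that of the 28 shorter ones −0.34. All long protein-coding genes tested had a median of −0.01 and the shorter ones −0.23. In somatodendritic libraries the medians were 0.11 and −0.05 for guidance genes, and −0.01 and −0.13 for all.

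Beyond these families, 2 further lists were described in the same fits. Among other guidance ligands and receptors (netrins, Dcc and Unc5 receptors, cell adhesion molecules and others), 0 of 44 genes tested passed an adjusted p of 0.05 for knockdown in axonal (all genes 0.387%) and 0 of 42 in somatodendritic libraries (1.03%). At an unadjusted p under 0.05 there was 1 gene, Rgmb, with lower values in axonal (all genes 6.78%) and 4 with higher values in somatodendritic libraries (4.54%). The 4 were Dcc, the netrin receptor (log2 change 0.77), Rgma (0.54), Chl1 (0.47) and Celsr3 (0.80), with limma adjusted p-values of 0.0918 to 0.163. Among 54 genes of intracellular guidance signalling, Crmp1, a collapsin response mediator that relays semaphorin signals, rose in somatodendritic libraries, from 525.6 ± 42.4 to 733 ± 26.3 scaled FPKM (log2 change 0.48, SE 0.09, limma adjusted p = 0.0258, range 0.00319 to 0.123 over the alternatives). It was the 1 of 54 that passed there (all genes 1.03%). Not all genes of the list rose. Gsk3b, a kinase, was at 57.3, 67.3, 64.1 and 49.3 in somatodendritic controls and at 34.1 to 47.4 in knockdown. The Gsk3b groups did not overlap, as in 3.8% of all genes for lower values. In axonal libraries 0 of the 54 passed (all genes 0.387%), with 2 higher genes, Mical2 and Farp1 (1.95%), and 1 lower gene, Cdk5 (6.78%), at an unadjusted p under 0.05.

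Between the control compartments, 4 of 43 other ligands and receptors and 5 of 54 signalling genes passed an adjusted p of 0.05, against 6.5% of all genes. Unc5b, a netrin receptor of vessels and neurons, and Vasp, an actin regulator, were higher in axonal libraries, at log2 changes of 2.54 and 1.77 (limma adjusted p = 0.0329 and 0.0369). Cntn1, Gfra1 and Nptn among the receptors, and Crmp1, Dpysl2, Dpysl5 and Cdc42 among the signalling genes, were lower, with log2 changes of −0.81 to −1.46. The part of fibroblasts, dividing cells and other cells of the marker lists in these levels was not tested. At an unadjusted p under 0.05, 3 of 43 other ligands and receptors had higher and 16 lower values in axonal libraries, against 11.9% and 10.4% of all genes, with a median log2 change of −0.64 against 0.00 for all genes.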

How the data were processed

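Total RNA from both compartments of cultured motoneurons was amplified and sequenced by the authors, who deposited FPKM with a 95% interval for each gene and library. They used Cufflinks 2.2.1 and GRCm38, with FastQC 0.10.1 for read quality, per the processing notes. Parameters of the mapping and read totals are not given in the sources used here. The deposited FPKM depend on all other transcripts of a library, and amplification by PCR without molecular identifiers means that fragments are not independent molecules.

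From these values, FPKM at or under 0.001 were listed as 0, and each library was divided by its median ratio to the geometric mean of all 20, taken from the 4577 genes that reached 1 FPKM everywhere. Implied fragments, (FPKM/SD) squared with the SD as the upper interval width divided by 2, gave the relative depth over 680 genes. Counting error is large, since the median guidance gene above 0 had between 0.362 and 7.0 implied fragments.

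Log2(scaled FPKM + 1) of genes with a mean of at least 1 was tested with limma 3.58.1 (lmFit, eBayes with trend) in R 4.3.3, on the libraries of each comparison, and p-values were adjusted after Benjamini and Hochberg. The difference of the knockdown effect was tested on axonal minus somatodendritic values paired by replicate number, an assumption. Tardbp was compared by two-sided exact permutation (scipy 1.17.1). The limma script was tested on simulated data. Alternatives were FPKM as deposited, scaling within a comparison, quantile normalization, pseudocounts of 0.1 and 5, other filters, libraries of a relative depth of at least 0.5, the replicate number as a block, and leaving out each library.

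The genes and lists were chosen with earlier results of these data known. Genes named with values are those past an adjusted p of 0.05 in any comparison, those in the study's lists, and Tardbp. The highest of each family in either control compartment was named too. A further set had an unadjusted p under 0.05 and groups that do not overlap. Of this set, only the genes with the largest log2 changes in each comparison were taken, up to a fixed number. Others named were chosen after their values were seen. Slc18a3 of the marker list was not matched. Sequences came from GENCODE M21. Introns and protein sequences were not analysed here.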

Additional observations from a re-analysis of the deposited data

Results flagged for a closer look

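Within groups of 4 or 6 libraries, a single value stood apart from the rest by Dixon's criterion in 11 of 104 tests. The tests covered the genes named by the rule in the methods that were above 0 in any library, and not the others named. The criterion's chance rate of about 1 in 20 holds for normally distributed values, and these were scaled FPKM without logs. All 11 values were the highest of their group, so that the count does not measure an excess over chance. In control axonal replicate 4, Efnb3 was at 69.0 scaled FPKM (next library 18.4), Ephb1 at 29.4 (next 7.25) and Ephb2 at 23.9 (next 7.37). In control axonal replicate 3, Sema3d was at 10.9 (next 2.12), Sema4d at 2.79 (next 1.57) and Efna2 at 1.44 with all others at 0. Sema6a was at 57.6 in control axonal replicate 1 (next 21.3). In knockdown axonal replicate 4, Slit1 was at 42.0 (next 12) and Sema7a at 14.4 (next 6.04). Sema3c was at 23.1 in knockdown axonal replicate 1 (next 7.58), and Slit2 at 35.4 in knockdown somatodendritic replicate 5 (next 22.2).

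The knockdown effect differed between compartments at an unadjusted p under 0.05 for 3 guidance genes, 2 higher and 1 lower, against 2.55% and 2.69% of all genes. As axonal minus somatodendritic log2 change, the difference was 3.1 for Epha6 (limma adjusted p = 0.252) and 1.63 for Ephb2 (adjusted p = 0.893). It was −2.08 for Sema4b, a class 4 semaphorin (limma adjusted p = 0.893), which was listed at 0 in 3 of 6 knockdown axonal libraries. None of the 3 passed the adjustment over all genes.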

How the results depend on the processing

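Low depth limits these results, with knockdown axonal replicate 5 and knockdown somatodendritic replicate 6 as the shallowest libraries. Single-gene values under the alternatives covered the 50 pairs of gene and comparison with an unadjusted p under 0.05 as reported. Of 927 such values, 873 kept direction and side of the adjusted threshold, 30 fell behind it, 24 passed it and 0 reversed. Only the 7 calls between control compartments could fall behind it, and pairs chosen by a low p are unlikely to reverse. Among genes outside these pairs, Slit2 in axonal knockdown had a log2 change of 0.08, and −0.34 to 0.62 over the alternatives. Counts of guidance genes moved as follows, and the cause was not tested. In FPKM as deposited, knockdown against control gave 8 higher and 0 lower genes at an unadjusted p under 0.05 in axonal libraries (3 and 1 as reported, all genes 7.16% and 2.67% under this setting), and 12 higher and 1 lower in somatodendritic libraries (5 and 3, all genes 9.27% and 5.44%), with 1 in place of 0 past the adjusted threshold (all genes 1.69%). Axonal against somatodendritic controls gave 23 lower genes (11, all genes 26.0%) and 14 past the adjusted threshold (7, all genes 14.9%), and axonal Tardbp was 52.9% of control (exact permutation p = 0.143).

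In parentheses are the shares of all genes under the same setting. Quantile normalization gave 5 higher genes in axonal (3.93%) and 8 in somatodendritic knockdown (7.35%), 2 past the adjusted threshold between knockdown compartments (2.76%), and 4 higher and 2 lower for the difference of the effect (3.24% and 2.76%). With a pseudocount of 5 there were 2 lower genes in axonal knockdown (7.51%), 1 past the adjusted threshold between knockdown compartments (1.82%), and 2 lower for the difference (3.55%). Axonal knockdown gave 2 lower genes without a filter (5.62%), with a mean of at least 5 (7.12%) and at a relative depth of at least 0.5 (5.04%). A mean of at least 5, which leaves fewer genes to test, gave 7 lower genes between control compartments (11.8%) and 0 for the difference (2.72%). A relative depth of at least 0.5 gave 8 higher genes between knockdown compartments (10.5%) and 2 lower for the difference (1.72%).

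Libraries with the same replicate number did not deviate together (correlations of −0.04 to 0.07), so that for each comparison of 2 groups the numbers were not taken as pairs. The difference of the knockdown effect was fitted with them as pairs, an assumption that these correlations do not bear out. With the replicate block, axonal knockdown had 3 lower genes (6.71%) and control compartments 4 past the adjusted threshold (3.2%). With no replicate block the difference had 2 lower genes (2.95%), and Epha6, Ephb2 and Sema4b had adjusted p-values of 0.252, 0.746 and 0.843 in limma.

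Leaving out 1 library gave, for knockdown against control, 2 to 5 higher and 1 to 3 lower genes in axonal and 3 to 6 and 2 to 3 in somatodendritic libraries, with 0 past the adjusted threshold in both. It gave 7 to 10 higher, 7 to 15 lower and 3 to 10 past the adjusted threshold between control compartments, with 3 without control somatodendritic replicate 2 or 3 and 4 without control axonal replicate 2 or control somatodendritic replicate 1 or 4. Between knockdown compartments it gave 4 to 7 higher, 8 to 11 lower and 0 to 3 past the adjusted threshold (3 without knockdown axonal replicate 4, 2 without replicate 3), and for the difference 1 to 6 higher (6 without knockdown replicate 5), 1 to 2 lower and 0 past the adjusted threshold. Tardbp was at 25.8% to 40.4% of control in axonal and 9.65% to 14.7% in somatodendritic libraries.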
